A study of Mus musculus with 19 samples.

Results

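The genotype by refeeding interaction asks, gene by gene, whether skeletal muscle that overexpresses lipoprotein lipase answered refeeding differently from wild-type muscle. RNA was sequenced from the gastrocnemius, a large calf muscle, of FVB mice. The 19 libraries formed 4 groups. WT_WLM (n = 5) was wild-type muscle taken during weight loss maintenance, and WT_REL (n = 4) was wild-type muscle taken after 24 h of refeeding. mCK-hLPL_WLM (n = 5) and mCK-hLPL_REL (n = 5) were the same phases in mice carrying mCK-hLPL, a transgene whose name stands for human lipoprotein lipase driven by the muscle creatine kinase promoter. All groups share the FVB background and, per the labels, a period of weight loss maintenance, and the genotype was present throughout and not switched on at refeeding. Every library and every gene enters the interaction, which is the log2 change mCK-hLPL_REL minus mCK-hLPL_WLM from which the log2 change WT_REL minus WT_WLM is subtracted. Of 54176 gene symbols in the table, 17028 had enough counts to be tested. A positive interaction means that the change on refeeding was more positive in mCK-hLPL muscle than in WT muscle. Whether libraries came from different mice is not given in the labels, so the tests read only the spread among the libraries.

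Lipoprotein lipase sits on the capillary wall and releases fatty acids from circulating triglyceride for uptake by the tissue. In fasting or energy deficit, muscle relies on fatty acid oxidation, held up by PPAR targets such as Pdk4, which closes the pyruvate dehydrogenase gate, and by FOXO factors that drive protein breakdown. Refeeding raises insulin, which switches on sterol-regulated genes of fatty acid and cholesterol synthesis through SREBP factors and shuts off the fasting programme. Whether that switch differed in size with the transgene is what the interaction measures.

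Libraries held 35595030 to 51073355 counts. Levels are given as CPM (counts scaled to a common library size) on library sizes scaled by TMM factors, which ran from 0.88 to 1.166. Muscle-defining genes such as Acta1, Ckm and Myh4 were present in every library, with a summed level of 108700 to 174970 CPM over 9 genes. Summed lymph node transcripts stood high in WT_WLM 1, WT_WLM 5 and mCK-hLPL_WLM 3, where the immunoglobulin gene Ighd reached 14.9, 12.5 and 11.4 CPM against 0.280 to 1.53 CPM in the other libraries. The red cell transcript Hba-a1 ran from 158 CPM in WT_WLM 4 to 4115 CPM in mCK-hLPL_REL 1. The liver transcript Alb was 104.9 CPM in WT_REL B and 98.3 CPM in mCK-hLPL_REL 5, against 0.952 to 49.2 CPM elsewhere. In whole muscle, fewer cells of a type and less RNA per cell cannot be told apart. Values in a group are listed in the order of library number, WT_REL as 1, 2, A and B, where A and B are columns numbered 4 and 5, which could not be matched to titles numbered 1 to 4. Changes and interactions are log2 values ± SE, and adjusted p-values are edgeR's. The table's Lpl row is the mouse gene and does not measure the human transgene.

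On refeeding, 16 of 24 cholesterol synthesis genes rose in WT and 17 in mCK-hLPL, and 7 and 16 of 21 fatty acid synthesis genes rose. Of 29 fatty acid oxidation genes 9 fell in WT and 13 in mCK-hLPL, and of 28 genes of muscle protein breakdown 7 fell in each. Over all genes tested, 2.63% rose and 2.25% fell in WT, and 4.11% rose and 4.03% fell in mCK-hLPL. No gene showed a difference between the responses of the genotypes that passed the test. With edgeR's quasi-likelihood test and Benjamini-Hochberg adjustment at 0.05, 0 of 17028 genes (0%) passed for the interaction. The smallest unadjusted p was 0.000319 and the smallest adjusted p was 0.9998. At an unadjusted p under 0.05 stood 403 genes (2.37%), 217 positive (1.27%) and 186 negative (1.09%), where evenly spread p-values would place 851. limma voom also called 0 genes, with 691 at an unadjusted p under 0.05. DESeq2 called 2 and had 386 at an unadjusted p under 0.05. Both of its calls had a group without any count, mCK-hLPL_WLM for Gm12693 and WT_REL for Gm7666. Their fitted values of 23.4 and 23.89 are therefore not readable as fold changes. In WT_WLM, libraries with 0 counts of these genes stood beside others with up to 115 and 181. Gm12693 held 33 to 147 counts in mCK-hLPL_REL. Without WT_WLM 4 edgeR called 1 gene, Gm14444, with an interaction of -2.98 (adjusted p = 0.0135), a gene with 55 counts in that library and 2 to 6 in the rest of WT_WLM. These 3 genes were chosen after their values were seen.

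The precision of the comparison sets what this count of 0 covers. The median SE of the interaction was 0.202, with 0.11 and 0.602 at the 10th and 90th percentiles. The 95% interval of the interaction lay wholly between -1 and 1 for 12326 genes (72.4%), so a doubling or its inverse lay outside the interval of each. These intervals are approximate and were taken gene by gene, without adjustment for their number, so some can miss the true value. The interval lay between -0.5 and 0.5 for 7318 genes (43%). For the 4702 genes (27.6%) whose interval was not within -1 to 1, a doubling or its inverse was within the error. Precision followed the level: the interval lay between -1 and 1 for 15.9% of the 4257 genes of lowest mean CPM and for 80.8%, 96.1% and 96.8% of the 3 sets of that size above them.

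Within each genotype, refeeding changed many genes. In WT muscle 831 genes passed (4.88%), 448 higher (2.63%) and 383 lower (2.25%) in WT_REL. In mCK-hLPL muscle 1387 passed (8.15%), 700 higher (4.11%) and 687 lower (4.03%) in mCK-hLPL_REL. The 2 responses share no library. Both lists held 518 genes, which is 62.3% of the WT list and 37.3% of the mCK-hLPL list, and all 518 had the same direction, 280 higher and 238 lower. Among these, the change was larger in size in WT for 301 genes and in mCK-hLPL for 217, with median sizes of 0.523 in WT and 0.507 in mCK-hLPL on the log2 scale. The interval of the interaction lay between -1 and 1 for 456 of them (88%). Of 313 genes called in WT and not in mCK-hLPL, 304 had the same direction in mCK-hLPL, and of 869 called in mCK-hLPL and not in WT, 853 had the same direction in WT. The counts of list members called in each genotype are read against the shares of 2.63% higher and 2.25% lower in WT and 4.11% and 4.03% in mCK-hLPL. A gene called in one genotype and not in the other is therefore not shown to differ between them: the interaction is that test, and it called none.

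The sizes of the refeeding lists moved when single libraries were left out and when red cell transcripts were a covariate. The WT count of 831 became 517 without WT_WLM 1, 421 without WT_WLM 3, 325 without WT_REL 1, 378 without WT_REL 2 and 257 without WT_REL B. The mCK-hLPL count of 1387 became 776, 674 and 778 without mCK-hLPL_WLM 2, 3 and 5, and 678 and 796 without mCK-hLPL_REL 2 and 3. The overlap of 518 became 284 without WT_WLM 3, 343 without mCK-hLPL_WLM 3, 261 without WT_REL 1, 281 without WT_REL 2 and 195 without WT_REL B. Summed erythroid transcripts ran from 600.1 to 1787 CPM in WT_WLM, 1104 to 4570.0 in WT_REL, 973 to 3208 in mCK-hLPL_WLM and 1862 to 11763 in mCK-hLPL_REL. The covariate was a different score, the scaled sum of log2 CPM over the erythroid markers. With it 184 genes passed in WT, 52 in mCK-hLPL and 40 in both, and 0 for the interaction. The summed CPM itself ran higher in mCK-hLPL_REL, where 4 of 8 tested erythroid markers rose (1 of 8 in WT). Red cell content and refeeding therefore cannot be fully told apart in that fit. Of the mCK-hLPL calls 50.5% were higher, against 31.6% when each library's total alone set the scale and the median change of all genes was set to 0.

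**Figure D1:**
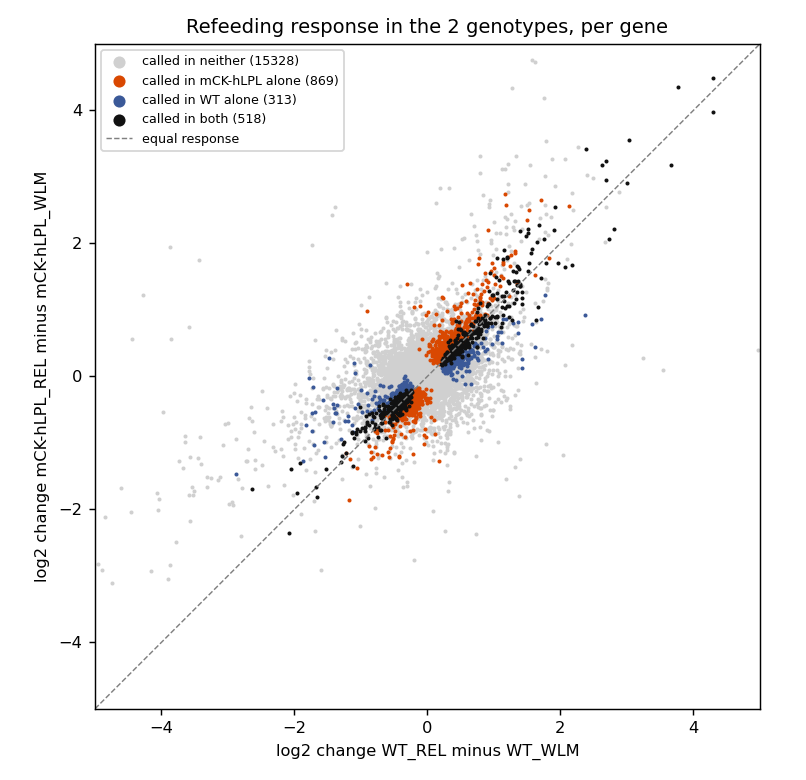
Log2 change on refeeding in WT (horizontal axis) and in mCK-hLPL (vertical axis), 1 point per gene over 17028 genes, coloured by whether edgeR called the gene in both genotypes, in 1 or in neither, with the dashed line at equal response. The 518 genes called in both lie at the upper right and lower left along the line, and 25 genes lie outside the plotted range of -5 to 5.

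The 20 genes of smallest interaction p, provisional symbols left aside, were named for that ranking, so their interactions are a description of what stands at the top of a list in which none passed. They held 13 positive and 7 negative interactions. Their adjusted p was 0.9998 or higher throughout. Positive were the interferon and immune genes Trim30a, H2-Eb1, Cxcl9 and Ido1, the mitotic motor genes Kifc5b and Kif11, the stress-responsive kinase gene Plk3, the histone deacetylase complex gene Sap30, the poly(A) polymerase gene Tent2, the protease inhibitor gene Tfpi2, the adhesion gene Flrt3, the meiosis gene Meiob and Lrriq3. Negative were Kcng4, a modifying subunit of potassium channels, Hus1, part of the DNA damage checkpoint clamp, Pars2, a mitochondrial prolyl-tRNA synthetase, Myh3, the embryonic myosin heavy chain, the phosphatase gene Ppm1n, Fam131c and Zfp952.

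Kcng4 (GRCm38 chr8:119623854-119635680, - strand) was at 25.7, 19.3, 23.3, 32.2 and 24.3 CPM in WT_WLM and 37.2, 38.5, 36.4 and 36.2 CPM in WT_REL. In mCK-hLPL it was at 23.4, 22.6, 30.8, 15.5 and 25.1 CPM before and 19.04, 24.2, 21.7, 19.5 and 23.6 CPM after refeeding. All 4 WT_REL libraries stood above every other library of the study, and the mCK-hLPL phases overlapped. It rose in WT by 0.57 ± 0.15 (adjusted p = 0.0345), the change in mCK-hLPL was -0.12 ± 0.14 (adjusted p = 0.65), and the interaction was -0.69 ± 0.21 (SE), 95% interval -1.12 to -0.26. Hus1 (GRCm38 chr11:8993137-9011191, - strand) had the same shape. Its levels were 6.34, 7.11, 6.24, 7.59 and 5.41 CPM in WT_WLM, 8.77, 8.98, 7.99 and 8.36 in WT_REL, 6.93, 7.46, 7.57, 6.72 and 6.99 in mCK-hLPL_WLM and 6.70, 6.88, 7.39, 6.77 and 6.98 in mCK-hLPL_REL. WT_REL again lay above the other 3 groups, with a rise of 0.38 ± 0.08 (adjusted p = 0.0131) in WT, a change of -0.04 ± 0.08 (adjusted p = 0.81) in mCK-hLPL and an interaction of -0.42 ± 0.11 (SE), 95% interval -0.66 to -0.18. Over all genes, the refed groups of the 2 genotypes did not overlap in 244 of 17028 (1.43%).

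Trim30a (GRCm38 chr7:104409025-104465193, - strand), an interferon-inducible member of the tripartite motif family, had the positive counterpart of that pattern. Its levels were 3.94, 3.52, 3.74, 2.80 and 4.14 CPM in WT_WLM and 2.72, 2.52, 2.81 and 2.75 in WT_REL. In mCK-hLPL they were 3.19, 2.78, 3.15, 3.46 and 2.30 CPM before and 3.48, 4.01, 3.43, 3.25 and 3.67 after refeeding. Every mCK-hLPL_REL library lay above every WT_REL library, and 4 of 5 WT_WLM libraries lay above WT_REL, WT_WLM 4 being the exception. Its response was -0.42 ± 0.13 (adjusted p = 0.0563) in WT and 0.26 ± 0.12 (adjusted p = 0.167) in mCK-hLPL, neither past the threshold, and the interaction was 0.69 ± 0.17 (SE), 95% interval 0.33 to 1.05. Myh3 (GRCm38 chr11:67078300-67102291, + strand) was at 4.24, 2.16, 3.36 and 2.37 CPM in WT_REL and 2.04, 1.09, 1.83, 1.67 and 1.45 CPM in mCK-hLPL_REL, which did not overlap, against 2.19, 2.15, 2.26, 3.12 and 2.36 in WT_WLM and 2.13, 1.85, 2.69, 2.36 and 2.74 in mCK-hLPL_WLM. Its interaction was -0.87 ± 0.28 (SE), 95% interval -1.46 to -0.28. Plk3 had another shape. It was at 2.21, 4.40, 3.31, 3.27 and 3.58 CPM in WT_WLM and 2.06, 1.03, 1.23, 2.24 and 1.41 CPM in mCK-hLPL_WLM, and the 2 refed groups overlapped at 2.27, 1.60, 2.01 and 1.51 and 1.76, 2.23, 1.58, 1.35 and 2.02 CPM. It fell in WT by 0.86 ± 0.23 (adjusted p = 0.0384) and its change in mCK-hLPL was 0.17 ± 0.22 (adjusted p = 0.694). Several of the largest estimates belonged to genes with few counts. H2-Eb1, a class II antigen presentation gene, had an interaction of 1.87 ± 0.54 (SE), 95% interval 0.73 to 3.002 at 0.329 to 2.03 CPM, and Meiob had 1.53 ± 0.52 (SE), 95% interval 0.43 to 2.63 at 0.0551 to 0.261 CPM.

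**Figure D2:**
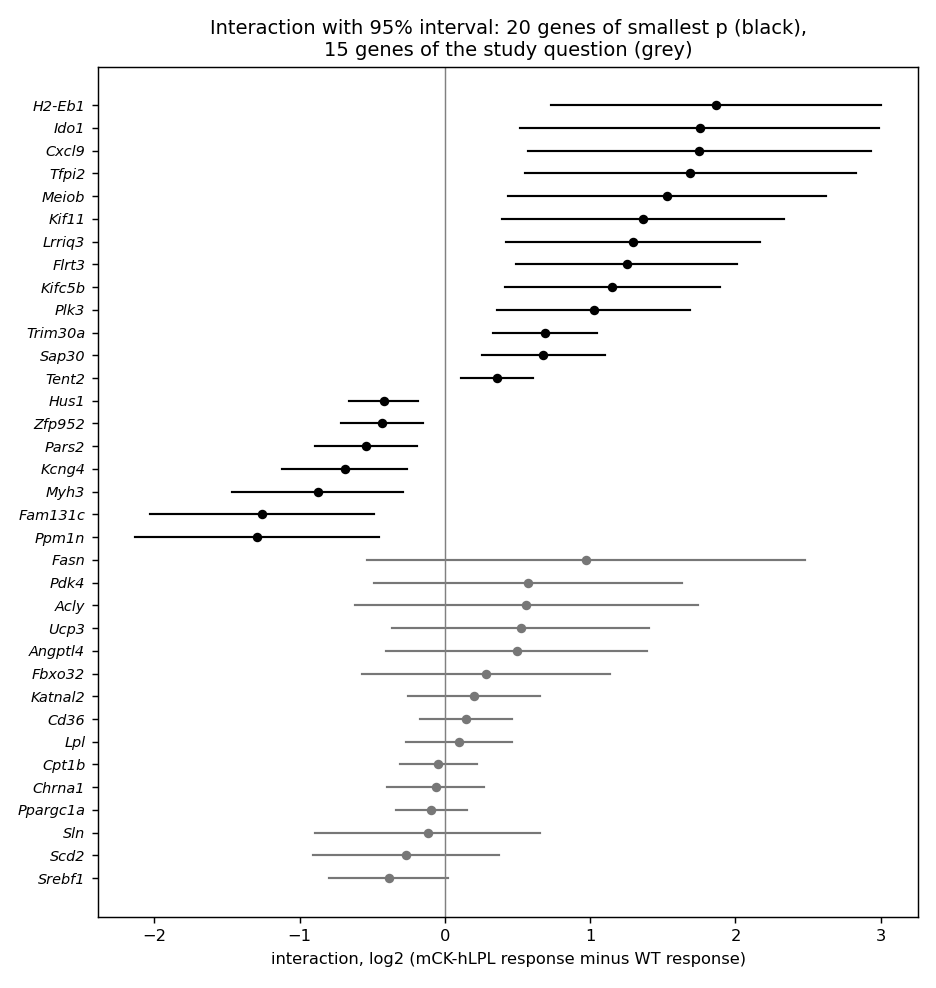
Interaction on the log2 scale with its 95% interval, each row a gene over all 19 libraries. Black marks the 20 genes of smallest interaction p and grey 15 genes listed for the study's question whatever their value. The grey genes include Chrna1 and Katnal2, which are not genes of fat use and whose difference between genotypes passed in both phases. The black intervals leave out 0 because the genes were ranked by p, and none passed after adjustment; all 15 grey intervals span 0, the widest being that of Fasn, -0.54 to 2.48.

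Interferon response and antigen presentation genes had the highest median interaction among the 25 pathway lists. These genes present peptides on class I molecules (H2-K1, H2-D1, B2m, Tap1, Tap2), relay interferon signals (Irf9) or act against intracellular microbes (Igtp, Irgm1, Iigp1). Of 37 members 36 were tested, 35 with a positive interaction, and the median was 0.50 against 0.01 over all genes tested, of which 8863 were positive and 8165 negative. An unadjusted p under 0.05 was reached by 11 members (30.6%), all positive, beside 1.27% of all genes. The list was written with earlier results of these data known, so this share is a description and not a test. WT_WLM 4 was the lowest WT_WLM library in 33 of 36 members, so the members are not independent counts. The interval of the interaction lay between -1 and 1 for 10 of 36. None passed after adjustment. In WT 7 members fell, beside 2.25% of all genes, namely Ifi47, Igtp, Irgm1, Iigp1, Cxcl9, Ido1 and Tgtp1 (median of the list -0.43). In mCK-hLPL 0 passed with edgeR in either direction (median 0.09), beside 4.11% of all genes higher and 4.03% lower. There 7 of 36 members had an unadjusted p under 0.05, beside 24.4% of all genes, and DESeq2 called 2 and limma voom 0. Many of these genes have near-identical neighbours, among them H2-K1 with H2-D1 and the paralogs of Iigp1 and Tgtp1, so the split of reads between copies is uncertain. Cxcl9 and Ido1 were named by rank, and the other members described in the next paragraphs were chosen after their values were seen.

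Cxcl9 (GRCm38 chr5:92321347-92328079, - strand), a T cell-attracting chemokine, was at 3.16, 1.39, 1.277, 0.624 and 2.55 CPM in WT_WLM and 0.309, 0.720, 0.606 and 0.935 CPM in WT_REL. In mCK-hLPL it was at 1.11, 1.06, 1.25, 0.853 and 0.718 CPM before and 0.630, 1.496, 1.13, 0.823 and 1.94 CPM after refeeding. The WT phases overlapped through WT_WLM 4 alone, and the mCK-hLPL phases overlapped broadly. It fell in WT by 1.48 ± 0.42 (adjusted p = 0.0482), its change in mCK-hLPL was 0.28 ± 0.38 (adjusted p = 0.706), and the interaction was 1.75 ± 0.56 (SE), 95% interval 0.57 to 2.93. Igtp, an interferon-induced GTPase, was at 19.7, 43.3, 26.7, 8.19 and 23.4 CPM in WT_WLM and 6.40, 15.04, 5.84 and 8.75 CPM in WT_REL, a fall of 1.43 ± 0.36 (adjusted p = 0.0283). The mCK-hLPL libraries held 13.3, 22, 9.16, 19.7 and 16.2 CPM before and 11.6, 9.91, 12.7, 12.0 and 13.6 after refeeding, a change of -0.42 ± 0.33 (adjusted p = 0.456), and the interaction was 1.004 ± 0.48 (SE), 95% interval 0.00 to 2.01. WT_WLM 4 stood within the refed WT range, and the other WT_WLM libraries stood above it.

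The class I genes differed in shape from Cxcl9 and Igtp, the highest library being a refed mCK-hLPL one in B2m and H2-K1. B2m, the light chain of class I molecules, was at 153, 161, 182, 93.0 and 186 CPM in WT_WLM and 120.0, 151, 116 and 154 CPM in WT_REL. It was at 157, 128, 116, 150.0 and 114 CPM in mCK-hLPL_WLM and 156, 204, 188, 149.8 and 182 CPM in mCK-hLPL_REL. All groups overlapped, WT_WLM 4 being the lowest library of the study. Neither the WT change of -0.19 ± 0.16 (adjusted p = 0.551) nor the mCK-hLPL change of 0.40 ± 0.15 (adjusted p = 0.113) passed, and the interaction was 0.60 ± 0.23 (SE), 95% interval 0.12 to 1.07. H2-K1, a class I heavy chain, gave 0.66 ± 0.23 (SE), 95% interval 0.18 to 1.15, with 53.5, 79.3, 55.9 and 79.8 CPM in WT_REL and 83.2, 106, 103, 77.9 and 93.9 CPM in mCK-hLPL_REL.

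**Figure D3:**
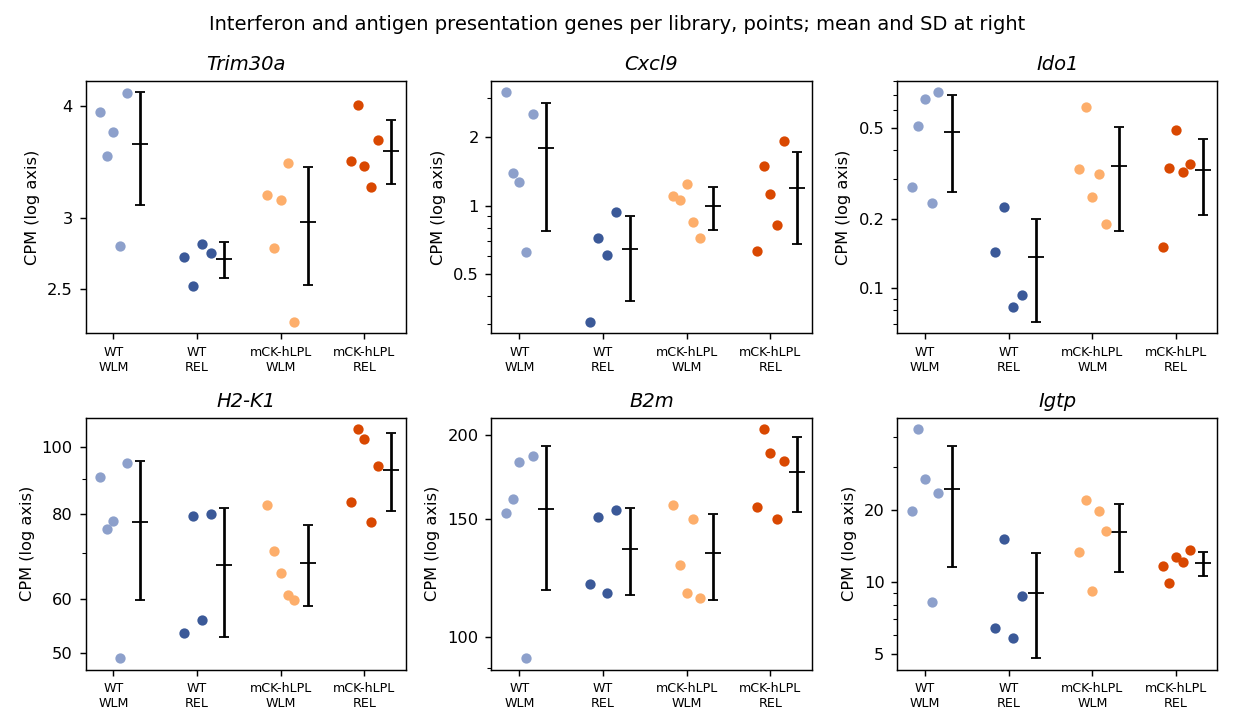
CPM per library on a log axis for Trim30a and 5 members of the interferon and antigen presentation list, with points for libraries and a bar for mean ± SD at the right of each group. WT_REL lies low for Trim30a, Cxcl9, Ido1 and Igtp, mCK-hLPL_REL lies high for H2-K1 and B2m, and WT_WLM 4 is the lowest WT_WLM library in all 6 panels.

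Promoter windows from RefSeq (GRCm38.p6, 300 bases from 250 before to 50 after the start) were searched on both strands for GAAA, any 2 bases and GAAA again, the core of the interferon-stimulated response element, and TTCNNNGAA, the core of the gamma-activated site. Windows were held for 28 of the 36 tested members, and 15 (53.6%) had the first motif, beside 3.08% of 11802 promoters of tested genes and 3.49% of 27025 promoters in all. The second was in 8 (28.6%), beside 6.96% and 8.47%. The list was drawn up from interferon response and antigen presentation genes, so these shares describe the list and not the interaction. Of the 11 members with an unadjusted p under 0.05, 7 had a window. The first motif was in 2 of these (28.6%) and the second in 1 (14.3%). B2m and Igtp are shown because they were the 2 of these 7 that held a match, with matches in capitals.
B2m, chr2:122147437-122147736, + strand: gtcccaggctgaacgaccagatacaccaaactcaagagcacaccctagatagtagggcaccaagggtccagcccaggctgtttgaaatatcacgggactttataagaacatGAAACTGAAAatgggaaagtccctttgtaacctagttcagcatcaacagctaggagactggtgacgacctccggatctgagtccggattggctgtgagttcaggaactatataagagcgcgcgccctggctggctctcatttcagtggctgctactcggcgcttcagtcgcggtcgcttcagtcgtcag
Igtp, chr11:58199306-58199605, + strand: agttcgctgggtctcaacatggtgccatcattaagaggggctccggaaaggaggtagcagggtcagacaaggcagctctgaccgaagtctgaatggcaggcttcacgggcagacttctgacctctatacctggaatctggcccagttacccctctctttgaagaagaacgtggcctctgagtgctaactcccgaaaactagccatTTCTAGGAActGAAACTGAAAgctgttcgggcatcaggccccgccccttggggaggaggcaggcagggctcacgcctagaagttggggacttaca
In B2m the interferon element began at -139 from the start. In Igtp the gamma-activated site began at -45 and the interferon element at -34, without overlap. A match describes letters and does not show that a factor was bound.

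The count of 11 was not held by all subsets of the libraries. It became 6, 22 and 6 without WT_WLM 2, 4 and 5, 5 and 7 without mCK-hLPL_WLM 3 and 5, 5 and 6 without WT_REL 1 and A, and 7, 5 and 17 without mCK-hLPL_REL 2, 3 and 4. The count over all genes moved too, from 403 (2.37%) to between 306 and 688 with each library left out. It was 686 (4.05%) without WT_WLM 4. WT_WLM 4 was the lowest WT_WLM library in 33 of 36 members, and WT_REL A the lowest of its group in 19. Immune cell transcripts also varied between libraries, and how closely they followed these genes was not tested. The lymph node list, 11 of 15 members tested, summed to 12.6 to 109.9 CPM in WT_WLM, 21.6 to 28.2 in WT_REL, 18.2 to 91.5 in mCK-hLPL_WLM and 20.1 to 29.8 in mCK-hLPL_REL, with a median interaction of 1.10 and no member at an unadjusted p under 0.05. The 18 lymphocyte markers tested were all positive, with a median of 1.75 and none at an unadjusted p under 0.05. Macrophage markers, 18 of 18 tested, summed to 77.4 to 285 CPM in WT_WLM, lowest in WT_WLM 4, 149.7 to 245 in WT_REL, 103 to 258 in mCK-hLPL_WLM and 169 to 344 in mCK-hLPL_REL, with a median interaction of 0.22. Without the 3 libraries of most lymph node transcripts, 3 members were left at an unadjusted p under 0.05 and the median was 0.33. Without the 3 libraries of most liver transcripts 7 were left, with a median of 0.53. The part of the remaining immune cell content in these interactions was not tested.

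Of 22 fatty acid synthesis genes 21 were tested, 7 rose on refeeding in WT and 16 in mCK-hLPL, and none fell. No interaction passed the test. Median responses were 1.05 in WT and 1.25 in mCK-hLPL, and the median interaction was 0.20, with 17 of 21 positive and none at an unadjusted p under 0.05. The interval lay between -1 and 1 for 13 of them, so for the rest a doubling between genotypes was within the error.

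Acly (GRCm38 chr11:100476353-100528000, - strand), which makes cytosolic acetyl-CoA from citrate, was at 52.8, 25.3, 23.1, 18.7 and 38.5 CPM in WT_WLM and 166, 218, 90.5 and 307 CPM in WT_REL. In mCK-hLPL it was at 26.7, 15.96, 30.7, 26.5 and 14.7 CPM before and 71.8, 341, 309, 137 and 182 CPM after refeeding. The phases did not overlap in either genotype, and the refed WT range lay within the refed mCK-hLPL range. It rose by 2.62 ± 0.42 (adjusted p = 0.00193) in WT and 3.18 ± 0.42 (adjusted p = 0.000341) in mCK-hLPL, with an interaction of 0.56 ± 0.56 (SE), 95% interval -0.62 to 1.74. Fasn (GRCm38 chr11:120805846-120824547, - strand), the fatty acid synthase, was at 529.8, 159, 227, 109 and 484 CPM in WT_WLM and 762, 1022, 474 and 1238 CPM in WT_REL, where the phases overlapped. It was at 248.8, 65.4, 219, 186 and 61.6 CPM in mCK-hLPL_WLM and 412, 1471, 1483, 541 and 524 CPM in mCK-hLPL_REL, without overlap. Its change of 1.53 ± 0.52 (adjusted p = 0.0952) in WT did not pass and its rise of 2.504 ± 0.52 (adjusted p = 0.00741) in mCK-hLPL did, yet the interaction was 0.97 ± 0.72 (SE), 95% interval -0.54 to 2.48. Scd2 (GRCm38 chr19:44293674-44306864, + strand), a stearoyl-CoA desaturase, was the more precise measure, at 21.9, 18.2, 24.2, 14.7 and 22.6 CPM in WT_WLM, 72.1, 71.2, 65.9 and 108 in WT_REL, 25.3, 18.1, 20.1, 26.1 and 17.2 in mCK-hLPL_WLM and 45.1, 92.1, 96.8, 47.7 and 65.6 in mCK-hLPL_REL. It rose by 1.97 ± 0.23 (adjusted p = 0.000134) in WT and 1.70 ± 0.22 (adjusted p = 0.000294) in mCK-hLPL, and its interaction was -0.27 ± 0.31 (SE), 95% interval -0.91 to 0.38. Scd1, the isoform dominant in fat and liver, gave an interaction of 0.75 ± 0.53 (SE), 95% interval -0.36 to 1.86. The fatty acid elongase gene Elovl6 gave 0.95 ± 0.73 (SE), 95% interval -0.58 to 2.49, and Pgd, an NADPH-making enzyme of the pentose phosphate route, gave 0.23 ± 0.32 (SE), 95% interval -0.45 to 0.91.

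Srebf1, the regulator that drives many of these genes, had the smallest interaction p of the list (unadjusted p = 0.0623). It was at 62.7, 46.0, 71.7, 63.0 and 66.9 CPM in WT_WLM and 90.9, 73.0, 67.4 and 83.2 in WT_REL, against 58.3, 60.2, 57.6, 56.5 and 64.1 in mCK-hLPL_WLM and 51.9, 51.7, 81.9, 47.3 and 54.7 in mCK-hLPL_REL. Of the refed mCK-hLPL libraries only mCK-hLPL_REL 3 reached the WT_REL range. Its interaction was -0.39 ± 0.20 (SE), 95% interval -0.80 to 0.02, opposite in sign to the list's median, and neither genotype's change passed. Fat cell transcripts, 16 of 16 markers tested, summed to 1907 to 2827 CPM in WT_WLM, 1675 to 2367 in WT_REL, 1940.0 to 2891 in mCK-hLPL_WLM and 1845 to 2467 in mCK-hLPL_REL, with a median interaction of 0.30. Their part in the fatty acid synthesis values was not tested gene by gene.

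**Figure D4:**
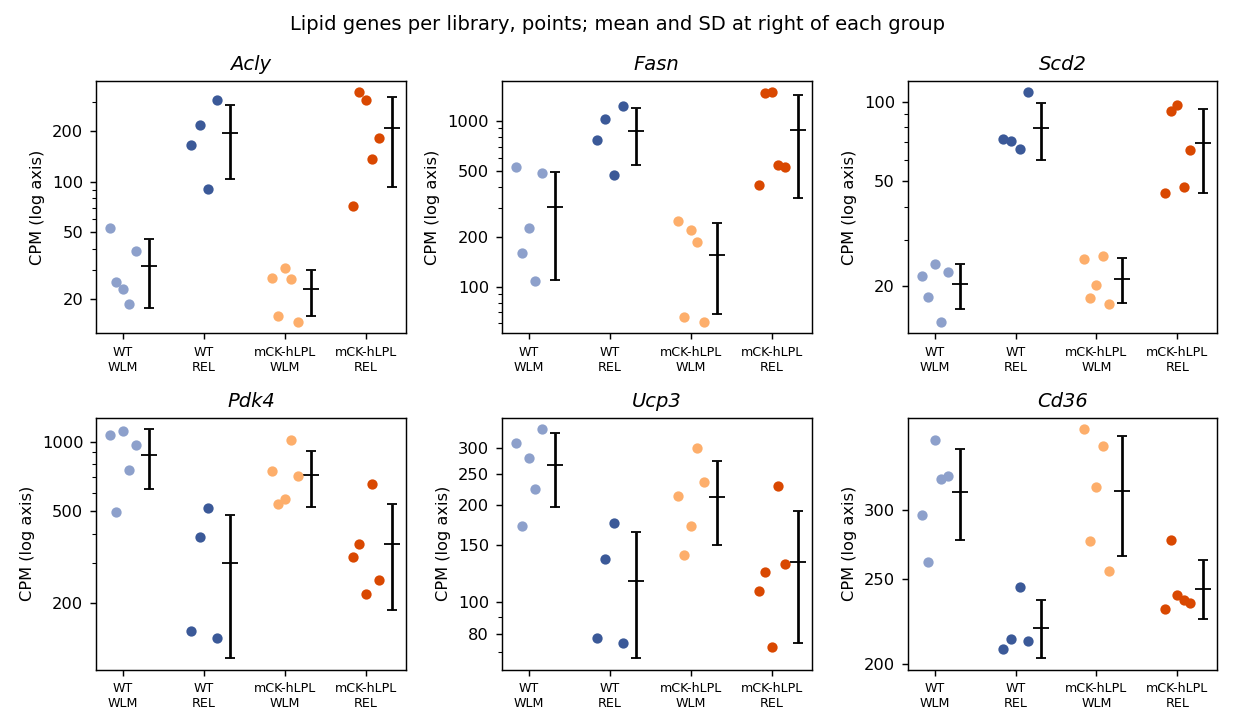
CPM per library on a log axis for 3 lipid synthesis genes (Acly, Fasn, Scd2) and 3 genes of fat use (Pdk4, Ucp3, Cd36), with points for libraries and a bar for mean ± SD at the right of each group. Group means of the synthesis genes stand higher and those of the fat-use genes lower after refeeding in both genotypes, and the refed groups of WT and mCK-hLPL overlap in all 6 panels.

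Most cholesterol synthesis genes rose on refeeding in each genotype. Of 25 members 24 were tested, 16 rose in WT and 17 in mCK-hLPL, and 2 fell in mCK-hLPL, Fdft1 and Hsd17b7. The median response was 0.50 in each genotype, the median interaction was 0.03 and the interval lay between -1 and 1 for 23 of 24. Dhcr7, which makes the last step to cholesterol in one branch, rose by 0.85 ± 0.10 (adjusted p = 0.000134) in WT and 0.76 ± 0.09 (adjusted p = 0.000261) in mCK-hLPL, with an interaction of -0.09 ± 0.14 (SE), 95% interval -0.38 to 0.19. Sqle, squalene epoxidase, was at 0.737, 0.782, 0.697, 0.559 and 0.530 CPM in WT_WLM, 1.44, 1.82, 1.52 and 3.08 in WT_REL, 0.731, 0.515, 0.638, 0.463 and 0.633 in mCK-hLPL_WLM and 1.84, 2.46, 3.31, 1.45 and 2.22 in mCK-hLPL_REL. Its phases did not overlap in either genotype and its interaction was 0.34 ± 0.35 (SE), 95% interval -0.39 to 1.07. Insig1, the sterol sensor that holds SREBP back, had an interaction of 0.30 ± 0.26 (SE), 95% interval -0.25 to 0.85.

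All 29 fatty acid oxidation genes were tested, 9 fell in WT and 13 in mCK-hLPL, and none rose. Median responses were -0.24 in WT and -0.29 in mCK-hLPL with a median interaction of 0.02, and the interval lay between -1 and 1 for 26. Pdk4 (GRCm38 chr6:5483351-5496309, - strand) was at 1068, 498, 1108, 756 and 966 CPM in WT_WLM and 152, 387, 516 and 142 CPM in WT_REL. In mCK-hLPL it was at 746, 537, 565, 1019.9 and 711 CPM before and 317, 360.3, 220.0, 657 and 252 CPM after refeeding. The phases overlapped in both genotypes, through 1 refed library each. It fell in WT by 1.56 ± 0.38 (adjusted p = 0.0258), its change in mCK-hLPL was -0.99 ± 0.35 (adjusted p = 0.086), and the interaction was 0.57 ± 0.51 (SE), 95% interval -0.49 to 1.63. Ucp3, a mitochondrial carrier of the uncoupling protein family, was at 309.7, 172, 279, 224 and 343 CPM in WT_WLM and 77.6, 136, 176 and 74.6 in WT_REL, and at 214, 139.5, 172, 299.5 and 235 in mCK-hLPL_WLM and 108, 124, 72.5, 229 and 131 in mCK-hLPL_REL. It fell in WT by 1.19 ± 0.32 (adjusted p = 0.036), changed by -0.67 ± 0.29 (adjusted p = 0.158) in mCK-hLPL, short of the threshold, and had an interaction of 0.52 ± 0.42 (SE), 95% interval -0.36 to 1.41. Mlycd, which removes malonyl-CoA, was narrower: it fell by 0.94 ± 0.10 (adjusted p = 0.00012) in WT and by 0.82 ± 0.10 (adjusted p = 0.000164) in mCK-hLPL, with an interaction of 0.12 ± 0.14 (SE), 95% interval -0.18 to 0.41. Cpt1b, the muscle gate for fatty acid entry into mitochondria, had an interaction of -0.05 ± 0.13 (SE), 95% interval -0.31 to 0.22, and Cpt1a, its liver-type isoform, had 0.34 ± 0.20 (SE), 95% interval -0.08 to 0.76.

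Genes of triglyceride uptake, storage and lipolysis moved both ways in each genotype. All 36 were tested, with 4 higher and 6 lower in WT, beside 2.63% and 2.25% of all genes, and 7 higher and 7 lower in mCK-hLPL, beside 4.11% and 4.03%. Their interactions ran from -0.54 to 1.25 with a median of 0.13, 28 were positive, and 26 intervals lay between -1 and 1. Cd36 (GRCm38 chr5:17781690-17888801, - strand), the membrane fatty acid transporter, was at 296, 262, 361, 326 and 328 CPM in WT_WLM and 208, 214, 245 and 213 in WT_REL, and at 371, 276, 319, 355 and 256 in mCK-hLPL_WLM and 231, 277, 239.8, 237 and 235 in mCK-hLPL_REL. It fell by 0.52 ± 0.11 (adjusted p = 0.0128) in WT and by 0.37 ± 0.10 (adjusted p = 0.0353) in mCK-hLPL, and its interaction was 0.15 ± 0.15 (SE), 95% interval -0.17 to 0.46. Plin5, a lipid droplet coat protein of oxidative tissue, had an interaction of 0.20 ± 0.23 (SE), 95% interval -0.27 to 0.68, and Pnpla2, the adipose triglyceride lipase, had 0.16 ± 0.19 (SE), 95% interval -0.25 to 0.56. Angptl8, a lipoprotein lipase inhibitor induced by feeding, rose by 4.30 ± 0.67 (adjusted p = 0.00164) in WT and 3.98 ± 0.64 (adjusted p = 0.00153) in mCK-hLPL, but its interaction, -0.33 ± 0.98 (SE), 95% interval -2.38 to 1.73, was too wide to read. Angptl4, the fasting-induced inhibitor of lipoprotein lipase, had 0.50 ± 0.43 (SE), 95% interval -0.40 to 1.39. Mouse Lpl itself was at 764, 562, 607, 627 and 692 CPM in WT_WLM, 496, 697, 749 and 754 in WT_REL, 815, 675, 773, 737 and 649 in mCK-hLPL_WLM and 692, 941, 810.3, 729.6 and 869.9 in mCK-hLPL_REL. All groups overlapped, and the interaction was 0.10 ± 0.17 (SE), 95% interval -0.27 to 0.46, with a sign that turned to -0.01 when fat cell transcripts were a covariate and to -0.02 without WT_REL 1.

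The FOXO and protein breakdown list had 28 of 28 members tested, with 7 lower and 1 higher in each genotype, medians of -0.47 in WT and -0.39 in mCK-hLPL, and a median interaction of 0.09. Fbxo32, the atrophy ubiquitin ligase atrogin-1, was at 368, 217, 383, 269 and 241 CPM in WT_WLM and 83.5, 142, 242 and 77.2 in WT_REL, against 182, 159, 186, 299 and 240.2 in mCK-hLPL_WLM and 111, 96.4, 94.4, 187 and 109 in mCK-hLPL_REL. It fell in WT by 1.12 ± 0.30 (adjusted p = 0.0401), its change in mCK-hLPL was -0.84 ± 0.28 (adjusted p = 0.071), and its interaction was 0.28 ± 0.41 (SE), 95% interval -0.57 to 1.14. Eif4ebp1, a brake on translation, fell by 0.90 ± 0.12 (adjusted p = 0.000607) in WT and by 0.68 ± 0.11 (adjusted p = 0.00174) in mCK-hLPL, with an interaction of 0.22 ± 0.16 (SE), 95% interval -0.12 to 0.57. Bnip3, a mitophagy receptor, fell by 0.56 ± 0.09 (adjusted p = 0.00203) in WT and by 0.68 ± 0.09 (adjusted p = 0.000294) in mCK-hLPL, with an interaction of -0.12 ± 0.12 (SE), 95% interval -0.38 to 0.14.

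Interactions in the contractile lists were mostly negative and small. In the slow and oxidative fibre list 14 of 15 interactions were negative, with a median of -0.27, and in the fast fibre list all 15 were negative, with a median of -0.11. Neither list held a member at an unadjusted p under 0.05. In mCK-hLPL 3 slow-fibre genes and 4 fast-fibre genes fell, beside 4.03% of all genes. In WT edgeR called 0 in either list, beside 2.63% of all genes higher and 2.25% lower. In WT 4 of 15 slow-fibre and 6 of 15 fast-fibre genes had an unadjusted p under 0.05, beside 20.6% of all genes. There DESeq2 and limma voom each called 0 and 1. Tpm3, a slow tropomyosin, fell in mCK-hLPL by 0.64 ± 0.14 (adjusted p = 0.0112), its change in WT was -0.32 ± 0.15 (adjusted p = 0.228), and its interaction was -0.31 ± 0.21 (SE), 95% interval -0.74 to 0.12. The 9 muscle-defining genes were also all negative, with a median of -0.10, and the 18 endothelial markers were all positive, with a median of 0.19 and summed levels of 692 to 1052 CPM in WT_WLM, 787 to 1003 in WT_REL, 668 to 935 in mCK-hLPL_WLM and 836 to 993 in mCK-hLPL_REL. Citric acid cycle and pyruvate dehydrogenase genes had 26 of 29 negative interactions, and a median of -0.08. Of these genes 7 fell in mCK-hLPL, beside 4.03% of all genes, and 1 in WT, beside 2.25%. Pdp1, the phosphatase that opens pyruvate dehydrogenase, was its only member at an unadjusted p under 0.05 (unadjusted p = 0.0462), with -0.63 ± 0.29 (SE), 95% interval -1.24 to -0.01. All 36 nuclear complex I genes had an interval between -1 and 1, with 14 positive and 22 negative interactions and a median of -0.02. Tendon cell markers, 12 of 12 tested, were all negative with a median of -0.76 and none at an unadjusted p under 0.05, and summed to 86.7 to 507 CPM in WT_WLM, 139 to 524 in WT_REL, 114 to 419.5 in mCK-hLPL_WLM and 186 to 307 in mCK-hLPL_REL.

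The clock list and the heat shock list each held 1 member at an unadjusted p under 0.05, beside 2.37% of all genes. The citric acid cycle and denervation-responsive lists also held 1 each, so this count does not set the clock and heat shock lists apart. Their members were Hlf and Hsph1, which ranked 235 and 367 of 17028 genes by interaction p. Among 20 clock genes 5 rose and 1 fell in WT, beside 2.63% and 2.25% of all genes. In mCK-hLPL 2 rose and 2 fell, beside 4.11% and 4.03%, and the median interaction was -0.12. Hlf, a clock output factor, was at 14.4, 17.2, 15.2, 17.4 and 13.5 CPM in WT_WLM, 23.6, 23.5, 17.7 and 23.2 in WT_REL, 16.9, 18.2, 18.2, 14.4 and 15.7 in mCK-hLPL_WLM and 19.1, 15.6, 23.2, 17.1 and 16.2 in mCK-hLPL_REL. It rose in WT by 0.50 ± 0.12 (adjusted p = 0.0203), without overlap between phases, its change in mCK-hLPL was 0.13 ± 0.11 (adjusted p = 0.51), and its interaction was -0.37 ± 0.16 (SE), 95% interval -0.71 to -0.03, with an unadjusted p of 0.0337. The other clock output genes Dbp and Nr1d1 rose in both genotypes, with interactions of -0.36 ± 0.26 (SE), 95% interval -0.91 to 0.19 and -0.17 ± 0.32 (SE), 95% interval -0.84 to 0.51. Heat shock genes, 21 of 21 tested, had a median interaction of 0.21 with 18 positive. Hsph1, a large chaperone of that family, gave 0.38 ± 0.18 (SE), 95% interval 0.01 to 0.75, and mCK-hLPL_WLM 4 was the highest of its own group at 52.8 CPM, within the range of the other groups. The immediate early genes Nr4a3 and Nr4a2, transcription factors that respond to muscle activity and hormones, gave 1.30 ± 0.65 (SE), 95% interval -0.06 to 2.66 and 1.13 ± 0.66 (SE), 95% interval -0.26 to 2.51. Neither reached an unadjusted p under 0.05.

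Ribosome biogenesis genes had 8 falls in WT, beside 2.25% of all genes, and 7 in mCK-hLPL, beside 4.03%. Their median interaction was 0.03, and all 30 intervals lay between -1 and 1. Of 35 collagen and matrix genes 6 rose in WT, beside 2.63% of all genes, and 8 in mCK-hLPL, beside 4.11%. The median responses were 0.60 and 0.62. Col3a1, a fibrillar collagen, gave an interaction of 0.13 ± 0.50 (SE), 95% interval -0.92 to 1.18. Median interactions were -0.07 for glycolysis and glycogen, -0.01 for insulin signalling, -0.05 for branched-chain amino acid breakdown, 0.10 for glucocorticoid-responsive genes, 0.13 for the integrated stress response, 0.10 for chaperones of the endoplasmic reticulum, -0.01 for denervation-responsive genes and 0.09 for secreted muscle factors.

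**Figure D5:**
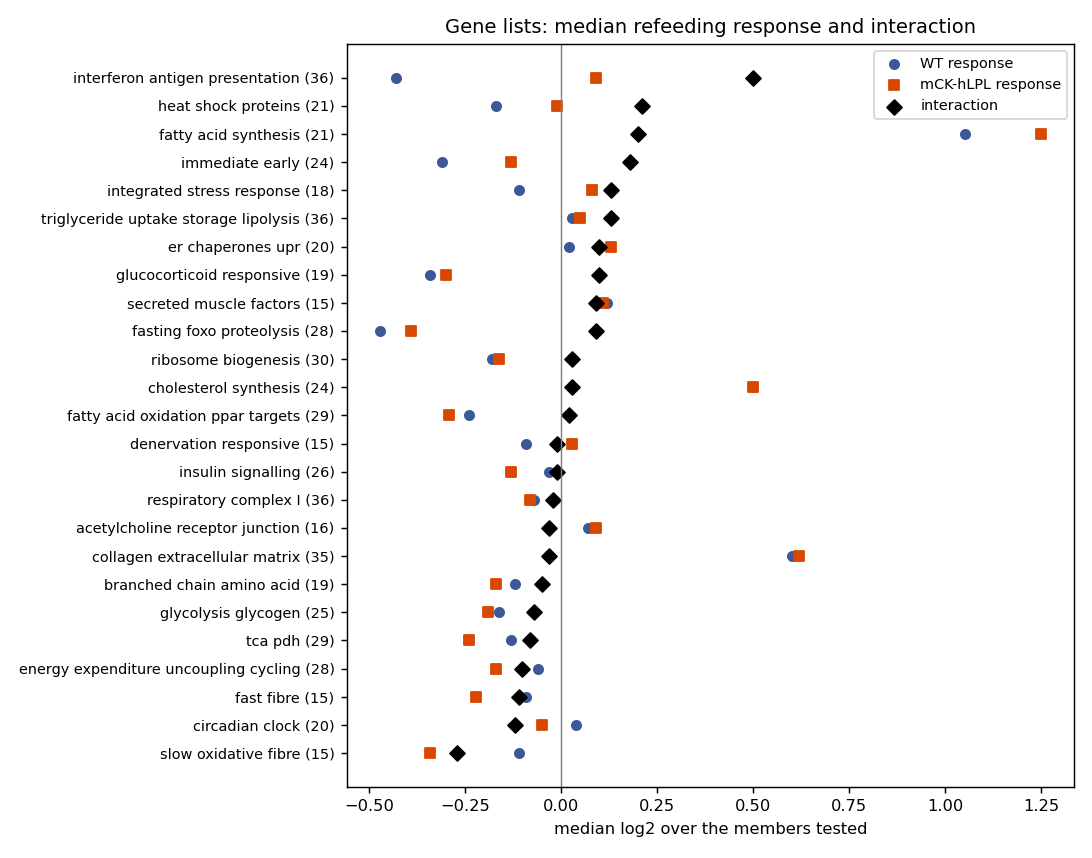
Median log2 change over the tested members of each of 25 pathway lists (number of members in brackets) for refeeding in WT (circles), refeeding in mCK-hLPL (squares) and the interaction (diamonds). Synthesis and collagen lists stand to the right for both genotypes, and the interferon and antigen presentation list has the highest median interaction, 0.50.

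Energy expenditure was the outcome named in the study's title, and 28 genes of uncoupling, calcium pump cycling and related routes were listed for it. Their median interaction was -0.10, 24 intervals lay between -1 and 1, and none reached an unadjusted p under 0.05. Sln, sarcolipin, which uncouples the calcium pump, was at 4.10, 7.30, 6.30, 3.48 and 3.05 CPM in WT_WLM, 3.17, 3.15, 4.33 and 2.34 in WT_REL, 4.36, 7.57, 4.13, 5.02 and 3.63 in mCK-hLPL_WLM and 3.65, 1.81, 3.05, 3.23 and 3.45 in mCK-hLPL_REL. Its interaction, -0.12 ± 0.37 (SE), 95% interval -0.89 to 0.65, turned to 0.06 without the 3 libraries of most lymph node transcripts. Ppargc1a, the coactivator of mitochondrial genes, had one of the narrower intervals, -0.09 ± 0.12 (SE), 95% interval -0.34 to 0.15. Prkag3, a muscle-specific subunit of AMP-activated kinase, was at 225, 226, 213 and 231 CPM in WT_REL and 168, 135, 171, 162 and 181 CPM in mCK-hLPL_REL, without overlap, against 150.4, 172, 162, 167 and 150.1 in WT_WLM and 129, 161, 164, 102 and 154 in mCK-hLPL_WLM. It rose in WT by 0.48 ± 0.11 (adjusted p = 0.02), its change in mCK-hLPL was 0.20 ± 0.11 (adjusted p = 0.258), and its interaction was -0.28 ± 0.16 (SE), 95% interval -0.61 to 0.04.

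Chrna1 and Katnal2 were higher in every mCK-hLPL library than in every WT library of the same phase. Chrna1, which encodes a subunit of the receptor by which motor nerves excite muscle, was at 10.2, 12.3, 13.8, 14.4 and 11.8 CPM in WT_WLM and 14.6, 10.6, 14.1 and 11.8 in WT_REL, against 27.6, 31.4, 32.02, 25.9 and 36.4 in mCK-hLPL_WLM and 32.2, 31.9, 30.6, 28.8 and 26.4 in mCK-hLPL_REL. Genotypes did not overlap in either phase, and the phases overlapped in both genotypes. Its interaction was -0.06 ± 0.16 (SE), 95% interval -0.40 to 0.27, 0.07 without the 3 libraries of most lymph node transcripts. Of 17 junction genes 16 were tested, with a median interaction of -0.03 and 15 intervals between -1 and 1. The separation by genotype was not shared by every junction gene: in Ache, which breaks down acetylcholine, the genotypes overlapped before refeeding, and in Lrp4, the agrin receptor, they overlapped in both phases. Katnal2, which encodes a katanin-like protein, had an interaction of 0.20 ± 0.22 (SE), 95% interval -0.25 to 0.65.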

How the data were processed

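The authors deposited 1 table of whole-number counts per gene symbol and library, not normalized, per the file headers and the values; the sheet's name refers to variance-stabilised values, but all values are whole and column totals differ. Tools named in the submitters' processing notes are Salmon 0.14.2 and DESeq2 1.28.1, with builds GRCm38 and mm10. What each tool did, the annotation and the strand setting are not given there or in the labels. Libraries were made with a NuGEN mRNA kit from column-isolated RNA, per the labels. Counts per library ran from 35595030 to 51073355. WT_REL columns are numbered 1, 2, 4 and 5 and the titles 1 to 4, so the match of the last 2 is uncertain and these libraries are called A and B. Date-like symbols (24, 0.0628% of counts) stayed in the fit and are not named.

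From these counts, genes were kept by filterByExpr (minimum count 10, minimum total 15) and tested with edgeR 4.0.16 in R 4.3.3 (TMM, glmQLFit, glmQLFTest, 2-sided) in a model of 4 group means over 19 libraries, adjusted by Benjamini-Hochberg over 17028 genes. SE is the estimate divided by the square root of F, and 95% intervals are approximate. Replicates were checked for duplicates: the chi-square per degree of freedom was at least 23.1 in 36 pairs. The members and lists were chosen with earlier results of these data known. Named were the 20 genes of smallest interaction p without provisional symbols, the 2 of smallest p in each of 25 pathway lists and 15 genes of the study's question, 78 in all; others were chosen after their values were seen. Coordinates are from GENCODE M21 and promoters from RefSeq (GRCm38.p6). The script was tested on simulated data. Alternatives were other filters, scalings, tools (DESeq2 1.42.0, limma 3.58.1), moderation, marker covariates, a replicate block and left-out libraries.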

Additional observations from a re-analysis of the deposited data

Results flagged for a closer look

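Among the 312 groups of 4 or 5 libraries looked at for the named genes, 19 held 1 library whose gap to its nearest neighbour was large for the group's range (13 high, 6 low), where chance gives about 1 in 20, or 15.6. In WT_WLM the high libraries were WT_WLM 4 for Myh3 at 3.12 CPM and WT_WLM 1 for Ppargc1a at 33.9 CPM, and WT_WLM 5 was low for Tpm3 at 370.1 CPM. In WT_REL, library A was high for Cd36 at 245 CPM and low for Hlf at 17.7, Tnc at 1.96 and Col12a1 at 3.78 CPM. WT_REL B was high for Insig1 at 29.3 CPM and Scd2 at 108 CPM, and WT_REL 2 was low for Ache at 17.8 CPM. In mCK-hLPL_WLM, library 1 was high for Mccc2 at 16.2 CPM, library 5 for Ndufs1 at 216 CPM and library 4 for Hsph1 at 52.8 CPM, and library 4 was low for Ddit3 at 5.04 CPM. In mCK-hLPL_REL, library 2 was high for Cd36 at 277 CPM, library 3 for Srebf1 at 81.9 CPM, library 4 for Fbxo32 at 187 CPM and library 5 for Pgam2 at 2113.5 CPM and Tm7sf2 at 4.92 CPM. The interaction of none of these genes passed the test with or without the library named.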

How the results depend on the processing

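The interaction called 0 genes under every alternative listed in the methods except DESeq2 (2), and 0 to 1 when each library was left out. Genes at an unadjusted p under 0.05 numbered 1086 with no low-count filter, 691 with limma voom, 220 without the 3 libraries of most lymph node transcripts and 306 to 688 with each library left out. Replicate numbers did not pair the libraries: of 21 same-number pairs 7 correlated over 0.1 (-0.358 to 0.216, median 0.04, against -0.0175 in other pairs). Only 3 of 17 numbered libraries correlated best with their own number. These 17 libraries hold only 2 of WT_REL. On them the replicate block gave 0 interaction calls and 587 genes (3.29%) at an unadjusted p under 0.05, against 0 and 730 (4.09%) without the block. It gave 32 calls in WT, 484 in mCK-hLPL and 27 shared (166, 1169 and 123 without the block).

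The WT, mCK-hLPL and shared counts were 492, 793 and 288 with no filter, 316, 608 and 230 without the 3 lymph node libraries, 177, 901 and 132 without the 3 libraries of most liver transcripts, and 184, 52 and 40 with the erythroid covariate. DESeq2 gave 1372, 2063 and 849, limma voom 1276 in WT and common median scaling 532 in WT. Leaving out each library gave 257 to 1027, 674 to 1705 and 195 to 569.

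The interferon count of 11 was 5 on the numbered libraries without the block, 3 and 7 without the lymph node and liver libraries, and 5 to 22 over left-out libraries; the median of 0.50 was 0.33 without the lymph node libraries and 0.45 to 0.67 over left-out libraries. Of 2562 estimates of named genes under alternatives 15 turned sign, in 4 genes near 0. These were Lpl (-0.01 with the fat cell covariate, -0.02 to 0.16 over left-out libraries), Sln (0.06 with the replicate block and without the lymph node libraries, -0.31 to 0.09 over left-out libraries), Cpt1b (-0.11 to 0.02 over left-out libraries) and Chrna1 (0.07 and 0.00 without the lymph node and liver libraries, -0.14 to 0.01 over left-out libraries). The cause was not tested. Alternatives for the interferon list, the shared count and the unadjusted count were chosen after seeing the data. Depth limits the genes of few counts: of the 4257 with the lowest mean CPM, 676 had an interval within a doubling.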
